A study of Oryza sativa with 12 samples.

Results

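Expression was examined for 7 rice genes of brassinosteroid synthesis and signalling, listed by identifier, among 38034 identifiers in the deposited tables, of which 31003 are rice locus identifiers. They are the synthesis enzymes OsDWARF4 (Os03g0227700), D11 (Os04g0469800), D2 (Os01g0197100) and BRD1 (Os03g0602300), the receptor OsBRI1 (Os01g0718300) and the transcriptional regulators OsBZR1 (Os07g0580500) and DLT (Os06g0127800). All 7 had a row in both tissues. RNA came from the shoot of the mutant line osspt5-1#12, the shoot of wild-type Nipponbare (WT), the root of osspt5-1#12 and the root of WT, with 3 libraries in each of the 4 groups and 12 libraries in all. Nipponbare is a japonica cultivar, and the mutant is a single line depleted of OsSPT5-1, a homolog of the transcription elongation factor SPT5. Both genotypes were raised in days of 15 h at 28 °C and nights of 9 h at 24 °C, with 70% humidity. The labels give neither the plants' age nor the nature of the mutant allele, and do not say whether libraries came from separate plants. P-values therefore reflect only how far these libraries spread, which may be technical in part.

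Brassinosteroids are plant steroid hormones that promote cell elongation and set leaf angle, plant height and root growth. They are made from membrane sterols by a chain of cytochrome P450 enzymes and perceived at the cell surface by the receptor kinase BRI1. Their signal is relayed in the nucleus by transcription factors of the BZR1 family. In rice, OsBZR1 and the GRAS protein DLT act downstream of the receptor, and the pathway is known to repress its own synthesis genes when the hormone is abundant. Rice plants that lack the receptor or certain of these enzymes are dwarfed, with erect or malformed leaves.

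Levels are in FPKM as the authors deposited them (fragments per kilobase of a gene, relative to the depth of its library), and the whole reads behind each value were recovered from the tables. Library totals ran from 10118483 to 15750501 reads, at which 3 reads of a row 1 kb long amount to between 0.19 and 0.296 FPKM. Differences between groups were tested with limma on log2(FPKM + 1) over the 25337 rows that reached 1 FPKM in 3 or more libraries. A row was called where the Benjamini-Hochberg adjusted p was under 0.05. Of the 7 genes, 6 passed the filter on low values and D2 did not. OsSPT5-1 itself was not analysed here, since the tables used do not pair its name with an identifier, and the genotype of the libraries was therefore not checked on it. The tissue labels were checked on 4 shoot loci and 4 root loci listed from general knowledge, whose identifiers the files do not pair with names; 3 chloroplast gene names also listed match no row. The summed level of the shoot loci was 1425 to 1589.1 FPKM in osspt5-1#12 shoot, 1278.1 to 1968.3 in WT shoot, 106.5 to 242.5 in osspt5-1#12 root and 211.3 to 285.3 in WT root. That of the root loci was 11.1 to 17.3 FPKM in osspt5-1#12 shoot, 8.31 to 10.7 in WT shoot, 228.4 to 902.4 in osspt5-1#12 root and 687 to 949.1 in WT root. The lists thus separated shoot from root libraries in both genotypes, while the root list reached lower values in mutant root than in WT root. Of the 4 root loci, 1 averaged under 1 FPKM in each root group, and of the 4 shoot loci 0 did so in either shoot group. How much of each sum came from a single locus was not examined.

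Of the 6 genes tested, OsDWARF4 was the 1 gene called lower in the mutant, both in shoot and in root, and its call in root was lost in a fit of the root libraries alone. It encodes the P450 that hydroxylates the sterol side chain, an early step of brassinosteroid synthesis that is rate-limiting in Arabidopsis. In shoot it was 4.54-fold lower in osspt5-1#12 than in WT, and in root 3.7-fold lower, by the ratio of mean FPKM. The 5 other tested genes were not called in either tissue. The level of BRD1 pointed the same way without passing the test, and the receptor and both regulators had higher means in the mutant that did not pass either.

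**Figure D1:**
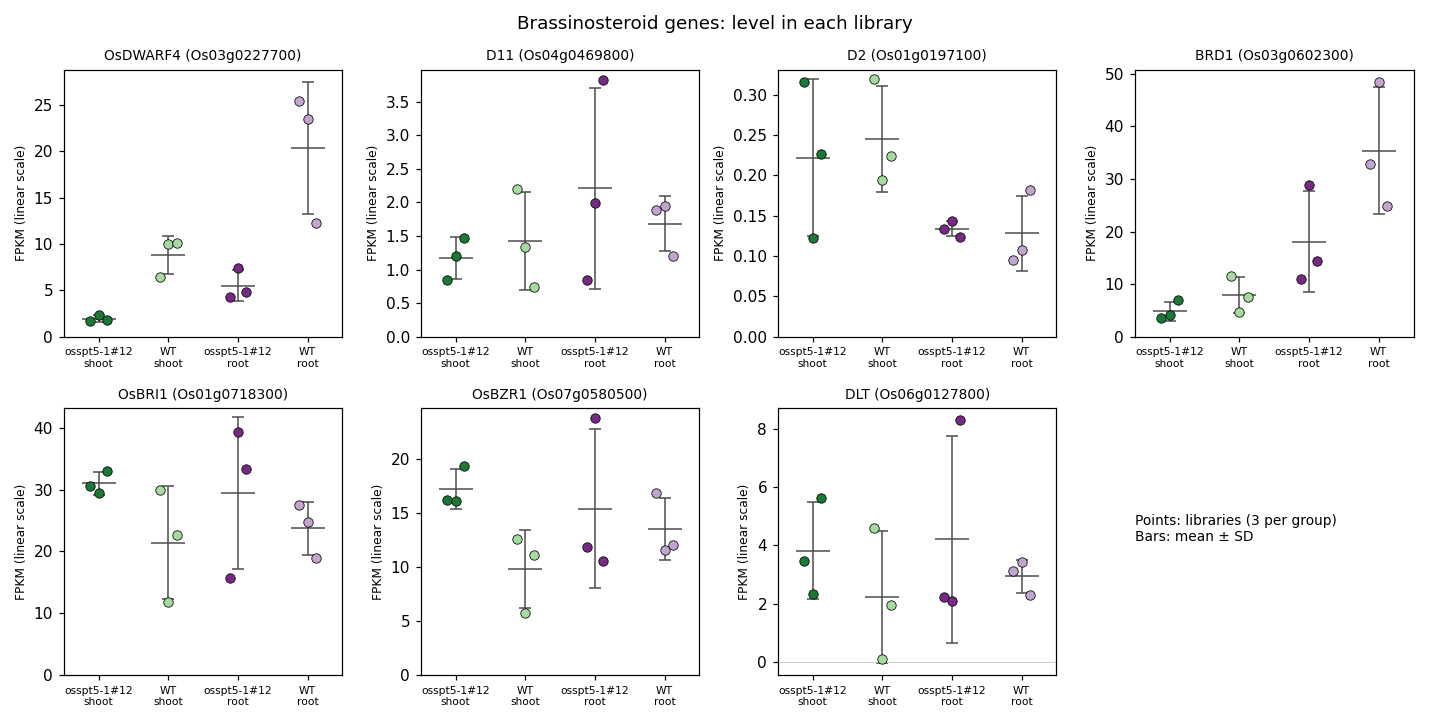
FPKM (linear scale) of the 7 genes in each of the 12 libraries, by group; points are libraries, and the horizontal mark and whiskers are the mean and SD of 3. The 3 osspt5-1#12 points of OsDWARF4 lie below all 3 WT points in shoot (1.66 to 2.37 against 6.4 to 10.1 FPKM) and in root (4.25 to 7.45 against 12.3 to 25.5 FPKM).

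In shoot, OsDWARF4 had 1.66, 2.37 and 1.81 FPKM in osspt5-1#12 libraries 1 to 3, from 39, 72 and 37 reads, against 6.4, 9.99 and 10.1 FPKM in WT libraries 1 to 3, from 187, 288 and 292 reads. All mutant libraries lay under all WT libraries, and the gap between the groups was wider than the range within either. The means were 1.94 ± 0.376 FPKM in osspt5-1#12 shoot and 8.82 ± 2.09 FPKM in WT shoot (SD, n = 3 each). This was a log2 fold change of −1.72, with an SE of 0.30 and a 95% interval of −2.38 to −1.06 (limma adjusted p = 0.00478, and 0.00222 to 0.03 over the other settings). Among the 6 genes 1 was called lower and 0 higher in mutant shoot, against 4.69% called lower and 4.8% higher over all rows tested, and counts this small cannot be read against those shares. With median-ratio factors the split over all rows was 1563 called lower and 793 higher, against 1189 and 1217 as deposited. By p-value OsDWARF4 ranked 736 of 25337 rows in shoot.

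In root, OsDWARF4 had 4.25, 7.45 and 4.87 FPKM in the osspt5-1#12 libraries, from 118, 194 and 146 reads, against 25.5, 23.5 and 12.3 FPKM in the WT libraries, from 498, 614 and 314 reads. The groups again did not overlap, although WT library 3 was nearer to mutant library 2 than to the other WT libraries. Means were 5.52 ± 1.7 FPKM in osspt5-1#12 root and 20.4 ± 7.13 FPKM in WT root (SD, n = 3 each). The log2 fold change of −1.68 had an SE of 0.30 and a 95% interval of −2.34 to −1.02 (limma adjusted p = 0.00876), and ranked 483 by p-value. In root 1 of the 6 genes was called lower and 0 higher, against 4.37% of all rows called lower and 2.63% called higher. With only the 6 root libraries in the fit, the same log2 fold change no longer passed (limma adjusted p = 0.109, within 0.0051 to 0.109 over all other settings). The summed level of the root loci also reached lower values in osspt5-1#12 root than in WT root, with overlapping ranges, as given above. Its part in the result was not tested. In bulk tissue, fewer cells that express a gene and less RNA per cell cannot be told apart.

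On the log2(FPKM + 1) scale the sizes of both falls were close. The mutant effect on OsDWARF4 in root minus that in shoot was 0.04 on the log2 scale (SE 0.42, limma adjusted p = 0.978). The 95% interval of this difference was −0.90 to 0.97, and values within it were not excluded. With pseudocounts of 0.1 and 0.01 this difference was 0.271 and 0.305, and with limma-voom 0.288, none of them called. OsDWARF4 was 1 of 221 rows (0.872% of those tested) called lower in both tissues. In the mutant it kept its order between tissues, with a mean 2.84-fold higher in osspt5-1#12 root than in osspt5-1#12 shoot, against 2.32-fold higher in WT root than in WT shoot.

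BRD1, the P450 that oxidises the steroid ring in the last steps towards castasterone, was the other enzyme whose mean was lower in the mutant in both tissues. In root it had 10.9, 28.9 and 14.5 FPKM in osspt5-1#12 libraries 1 to 3, against 32.8, 48.5 and 24.9 FPKM in the WT libraries. Mutant library 2 exceeded WT library 3, so the groups overlapped through that 1 library. The means were 18.1 ± 9.54 FPKM in osspt5-1#12 root and 35.4 ± 12 FPKM in WT root (SD, n = 3 each), a log2 fold change of −0.99 (SE 0.40, unadjusted p = 0.0319, limma adjusted p = 0.162). Its 95% interval of −1.89 to −0.10, before any adjustment, left room for a fall as large as that of OsDWARF4.

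In shoot, BRD1 had 3.58, 4.05 and 6.95 FPKM in the osspt5-1#12 libraries, against 11.5, 4.66 and 7.5 FPKM in the WT libraries. Mutant library 3 lay within the WT range and the other mutant libraries just under it. Its log2 fold change of −0.57 had a 95% interval of −1.46 to 0.32 (limma adjusted p = 0.413, and 0.245 to 0.721 over the other settings). Without WT shoot library 1, the highest, it was −0.29.

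D11 is a second P450 of side-chain hydroxylation, which in rice shares its reaction with OsDWARF4. It had 0.85, 1.21 and 1.47 FPKM in osspt5-1#12 shoot, against 2.2, 1.33 and 0.747 FPKM in WT shoot, and 0.841, 1.99 and 3.82 FPKM in osspt5-1#12 root, against 1.88, 1.95 and 1.21 FPKM in WT root. The mutant values fell inside the WT range in shoot and spread to both sides of it in root. Its log2 fold change was −0.12 in shoot (95% interval −0.89 to 0.64, limma adjusted p = 0.871) and 0.17 in root (95% interval −0.60 to 0.93, limma adjusted p = 0.826). These intervals lie above the log2 fold changes of OsDWARF4. At the low level of D11, however, the added 1 FPKM shrinks any fall, so these intervals alone cannot show that D11 fell less. With pseudocounts of 0.1 and 0.01 its log2 fold change was −0.173 and −0.179 in shoot. In root it was 0.178 and 0.176 in the same order. Limma-voom gave −0.181 in shoot and 0.195 in root, and D11 was called under none of these settings. The difference between both genes was not tested.

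D2, another P450 of the pathway, was hardly read in any library, with 0.0953 to 0.319 FPKM. Summed over the 3 libraries of a group it had 17 reads in osspt5-1#12 shoot, 23 in WT shoot, 12 in osspt5-1#12 root and 10 in WT root. The exact 95% Poisson intervals of these sums were 9.9 to 27.2, 14.6 to 34.5, 6.2 to 21 and 4.8 to 18.4 reads in the same order, which cover counting error only. No difference between mutant and WT was detectable at this depth, and D2 entered no test.

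**Figure D2:**
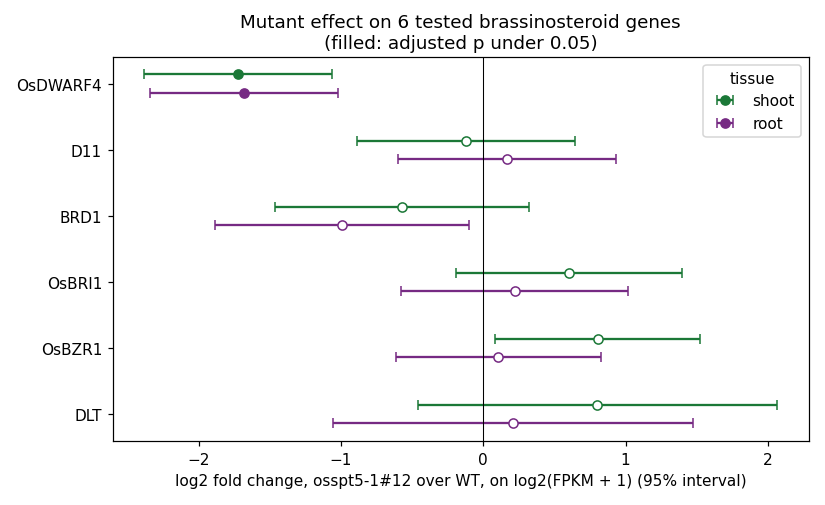
Log2 fold change of osspt5-1#12 over WT on the log2(FPKM + 1) scale for the 6 genes tested, in shoot (green) and root (purple), with 95% intervals; filled points have a limma adjusted p under 0.05. OsDWARF4 stands at −1.72 in shoot and −1.68 in root, and the intervals of the other genes include 0 except for BRD1 in root and OsBZR1 in shoot, neither of which passed after adjustment.

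OsBRI1, the receptor kinase that binds the hormone, was among the 2 most abundant of the 7 genes in every group by mean FPKM. In shoot it had 30.5, 29.4 and 33 FPKM in osspt5-1#12, against 29.9, 11.8 and 22.6 FPKM in WT. The mutant libraries stood close together, and WT library 1 reached their level while WT library 2 had the lowest value. Its log2 fold change of 0.60 had an SE of 0.36 and did not pass (limma adjusted p = 0.328, and 0.161 to 0.792 over the other settings), and it was 0.24 without WT shoot library 2.

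In root, OsBRI1 had 15.7, 39.3 and 33.3 FPKM in osspt5-1#12, against 27.5, 24.7 and 19 FPKM in WT. Mutant library 1 was under all WT libraries and the other mutant libraries above all of them. The log2 fold change of 0.22 had a 95% interval of −0.58 to 1.01 (limma adjusted p = 0.766).

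OsBZR1, the transcription factor activated by brassinosteroid signalling, had 16.2, 16.1 and 19.3 FPKM in osspt5-1#12 shoot, against 12.6, 5.77 and 11.1 FPKM in WT shoot. All mutant shoot libraries lay above all WT shoot libraries. The means were 17.2 ± 1.82 FPKM in osspt5-1#12 shoot and 9.84 ± 3.6 FPKM in WT shoot (SD, n = 3 each), 1.75-fold apart. This did not pass the test (log2 fold change 0.80, SE 0.33, unadjusted p = 0.032, limma adjusted p = 0.156). Without WT shoot library 2 the log2 fold change was 0.50 (limma adjusted p = 0.462, within 0.0735 to 0.462 over the other settings). Such a separation was common: in shoot 23.9% of rows had all mutant libraries above all WT libraries and 15% had them all below.

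Among the 6 tested genes in shoot, OsBZR1 alone was separated upward and OsDWARF4 alone downward. In root OsDWARF4 was the 1 gene of the 6 whose groups did not overlap, and over all rows 12.3% were separated upward and 11.6% downward. OsBZR1 in root had 11.8, 23.8 and 10.5 FPKM in osspt5-1#12, against 16.8, 11.6 and 12 FPKM in WT. Only mutant library 2 stood out, and the log2 fold change was 0.11 (95% interval −0.62 to 0.83, limma adjusted p = 0.892).

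DLT, a GRAS-family regulator that acts with OsBZR1 in brassinosteroid responses, varied widely between libraries. It had 3.48, 2.35 and 5.62 FPKM in osspt5-1#12 shoot, against 4.61, 0.13 and 1.96 FPKM in WT shoot, where the value of 0.13 rests on 6 reads. In root it had 2.25, 2.09 and 8.29 FPKM in osspt5-1#12, against 3.11, 3.43 and 2.32 FPKM in WT. Mutant and WT overlapped in both tissues, and 1 library, WT shoot library 2 or mutant root library 3, set most of the distance between means. The log2 fold change was 0.80 in shoot (95% interval −0.46 to 2.06, limma adjusted p = 0.418, and 0.147 to 0.916 over the other settings). It was 0.18 without WT shoot library 2 and 1.34 without WT shoot library 1. With pseudocounts of 0.1 and 0.01 it was 1.496 and 1.727, and with limma-voom 1.67, none of them called. In root the log2 fold change of DLT was 0.21 (95% interval −1.05 to 1.47, limma adjusted p = 0.875, and 0.68 to 0.982 over the other settings) and −0.31 without mutant root library 3.

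WT shoot library 2 was thus the lowest of the WT shoot libraries for BRD1, OsBRI1, OsBZR1 and DLT, and it had the fewest rows above 0 of the 6 shoot libraries (28713, against 29395 to 29882 in the others). OsDWARF4 did not follow it: its 9.99 FPKM there was close to the highest WT shoot value, and without that library its log2 fold change in shoot was −1.63 (limma adjusted p = 0.0255). In shoot, all rows had a median log2 fold change of 0.13 as deposited and −0.01 with median-ratio factors, under which OsBZR1 stood at 0.63 and OsBRI1 at 0.42, while OsDWARF4 stood at −1.88 (limma adjusted p = 0.00222).

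**Figure D3:**
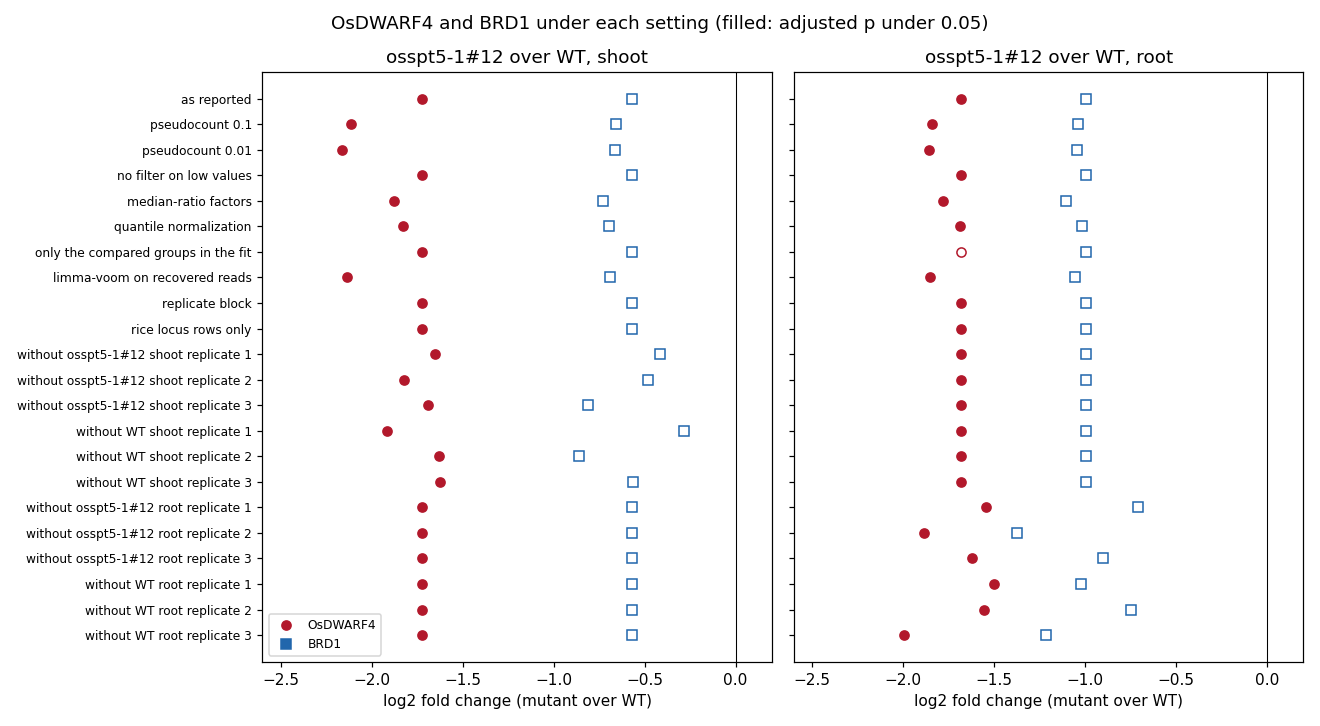
Log2 fold change of osspt5-1#12 over WT for OsDWARF4 (red circles) and BRD1 (blue squares) in shoot and root, as reported and under each other setting; filled symbols have a limma adjusted p under 0.05. OsDWARF4 ranged from −2.16 to −1.62 in shoot and from −2.0 to −1.50 in root and lost its call once, in root with only the compared groups in the fit, while BRD1 was below 0 throughout and called under none of the settings.

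The mutant effect was not shown to differ between root and shoot for any of the 6 genes. With limma 0 of them were called for this difference, 0 had an unadjusted p under 0.05, and limma-voom on the recovered reads also called 0. Over all rows 1.55% were called more positive in root and 1.98% more negative, or 392 and 501 rows, against 524 and 418 rows with quantile normalization. The estimates ran from −0.70 for OsBZR1 (95% interval −1.72 to 0.32, limma adjusted p = 0.503) to 0.29 for D11 (95% interval −0.79 to 1.37, limma adjusted p = 0.823), and the interval of DLT, the widest, ran from −2.38 to 1.19. Differences between tissues within these intervals were not excluded.

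In WT plants, BRD1 and OsDWARF4 were higher in root than in shoot. BRD1 averaged 35.4 ± 12 FPKM in WT root and 7.9 ± 3.46 FPKM in WT shoot (SD, n = 3 each), 4.48-fold higher, with no overlap between the libraries (log2 fold change 2.06, SE 0.40, limma adjusted p = 0.00232). OsDWARF4 averaged 20.4 FPKM in WT root and 8.82 FPKM in WT shoot (log2 fold change 1.09, SE 0.30, limma adjusted p = 0.0161). That call for OsDWARF4 was lost without WT root library 1 (limma adjusted p = 0.0703), WT root library 2 (0.067) or WT shoot library 1 (0.0601), with adjusted p between 0.00396 and 0.0703 over all other settings. Of the 6 genes, 2 were called higher in WT root and 0 higher in WT shoot, against 17.8% and 16.5% of all rows in the same order. With median-ratio factors 3951 rows were called higher in WT root and 4692 higher in WT shoot, against 4513 and 4189 as deposited. D11, OsBRI1, OsBZR1 and DLT did not pass (limma adjusted p = 0.309 to 0.74), and the receptor's mean of 23.7 FPKM in WT root was 1.11-fold that of 21.4 FPKM in WT shoot.

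The order of the genes by mean FPKM differed with tissue and genotype. In osspt5-1#12 shoot it was OsBRI1, OsBZR1, BRD1, DLT, OsDWARF4, D11 and D2, with overlapping libraries between BRD1 and DLT and between DLT and OsDWARF4. In WT shoot it was OsBRI1, OsBZR1, OsDWARF4, BRD1, DLT, D11 and D2, where each of the first 3 overlapped the next, as did DLT and D11. OsDWARF4 thus stood below DLT in mutant shoot and above BRD1 in WT shoot. In osspt5-1#12 root the order was OsBRI1, BRD1, OsBZR1, OsDWARF4, DLT, D11 and D2, with overlap between neighbours except OsBZR1 and OsDWARF4, and D11 and D2. In WT root BRD1 came first, followed by OsBRI1, OsDWARF4, OsBZR1, DLT, D11 and D2, where each of the first 3 overlapped the next.

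Wider parts of the pathway were examined as a list of 19 further loci known from rice genetics for brassinosteroid synthesis, perception or response. Their identifiers were listed from general knowledge and are not paired with names in the tables used here, so the loci are not named. Of these, 17 passed the filter on low values. In shoot 2 were called higher in the mutant, 0 lower, and 15 did not pass, against 4.8% higher and 4.69% lower over all rows. Both calls lay just under the threshold (limma adjusted p = 0.0454 and 0.0494). The median log2 fold change was 0.25 for the 17 loci and 0.13 over all rows, and limma-voom called 1 of the 17. In root limma called 0 of the 17, against 2.63% higher and 4.37% lower over all rows, with 1 of the 17 at an unadjusted p under 0.05 and 0 called by limma-voom, and the median was 0.35 against 0.06 over all rows. For the 6 tested genes of the main list the medians were 0.24 in shoot and 0.14 in root. Between WT root and WT shoot, 6 of the 17 were higher in root, 2 were higher in shoot and 9 did not pass, against 17.8% higher in root and 16.5% higher in shoot over all rows.

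For each tested gene, the rice locus whose log2(FPKM + 1) followed it most closely over the 12 libraries was looked up among the tested rows. For OsDWARF4 it was Os01g0100800 (Pearson's r = 0.981, n = 12 libraries), with means of 12.4 FPKM in osspt5-1#12 shoot, 17.7 in WT shoot, 15.7 in osspt5-1#12 root and 22.4 in WT root. That locus has the same order of groups within each tissue over a narrower range than OsDWARF4. For BRD1 it was Os11g0147100 (r = 0.962), for D11 Os01g0936800 (r = 0.94), for OsBRI1 Os10g0127000 (r = 0.967), for OsBZR1 Os06g0184300 (r = 0.954) and for DLT Os07g0445600 (r = 0.971). These are the highest of many correlations over libraries that share tissue, genotype and depth, and describe likeness only. None of the 6 closest loci is another gene of the 7.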

How the data were processed

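The members and lists were chosen with earlier results of these data known. Per the labels' protocols, 2 µg of total RNA went into each NEBNext Ultra library. Per the file headers, the authors deposited FPKM values, with a file for each library. The submitters' processing notes list Bowtie2 2.2.3, HISAT2 2.1.0 and HTSeq 0.6.0 with build IRGSP-1.0, giving no role or order. Which annotation, lengths and filters were applied is not given in the sources used. The kit does not mark strand, so antisense reads cannot be told from sense reads. How reads over overlapping genes were counted is not given either.

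From these values, rows missing from a tissue's files were set to 0. Whole reads and lengths were recovered by finding the smallest reads per row that fit every library within 0.002 reads and give a whole length to within 0.05 bases. All 38034 rows (100%) came out whole. Recovery and testing were also run on simulated data, and no outcome of these runs is used here. For testing, the simulated reads had the same spread setting for every gene, which may differ from the spread of these libraries. The test was limma 3.58.1 in R 4.3.3 (limma-trend, two-sided, Benjamini-Hochberg over all rows tested) on log2(FPKM + 1), with a mean per group over 12 libraries on rows that reached 1 FPKM in 3 or more libraries. A fold change on this scale understates changes of low genes. Same-numbered libraries did not deviate together (correlations of −0.274 to 0.141 between genotypes of a tissue and −0.121 to 0.185 between tissues of a genotype, not all above 0.1 in any group), so the fit has no replicate block. All 7 genes are named, plus 1 most alike locus for each tested gene. Gene names come with the list of members. The reference table (RefSeq, ASM3414082v1) holds 5 of the 7 names, all 5 on the chromosome that the identifier gives, but does not pair them with identifiers. No sequences or coordinates were used.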

Additional observations from a re-analysis of the deposited data

How the results depend on the processing

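Besides the reported fit, 9 other settings and 12 fits that each left out 1 library were run. Of the 498 values of single genes under them, 477 kept direction and side of the threshold, 4 lost a call and 17 changed sign, and none of these 17 was a called value. OsDWARF4 kept its call in shoot under all 21 and in root under all but 1: with only the compared groups in the fit, 0 of the 6 genes was called in root, against 1. Between WT root and WT shoot, 1 to 2 genes were called with a library left out. With a replicate block, OsDWARF4 stood at −1.72 in shoot and −1.68 in root (limma adjusted p = 0.0214 and 0.0338), and no call changed. With median-ratio factors OsBZR1 in root was −0.001. Leaving out 1 library gave log2 ranges that include 0 as follows. In shoot D11 ran from −0.339 to 0.098. In root D11 ran from −0.18 to 0.513, OsBRI1 from −0.031 to 0.604, OsBZR1 from −0.24 to 0.318 and DLT from −0.308 to 0.486. For the effect in root minus that in shoot, OsDWARF4 ran from −0.276 to 0.229, D11 from −0.056 to 0.637, OsBRI1 from −0.659 to 0.002 and DLT from −1.131 to 0.025. For WT root over WT shoot, D11 ran from −0.04 to 0.397, OsBRI1 from −0.142 to 0.495 and DLT from −0.054 to 1.101. The cause of these changes was not tested. D2 has too few reads for any comparison.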
